A study of Homo sapiens with 8 samples.

Results

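The MYC and MAX network consists here of MYC and its relative MYCN, their partner MAX, the antagonists MXI1, MXD1, MXD3, MXD4 and MNT, the parallel partner MLX, and MGA. Members were taken by name: every probe set whose platform annotation names one of these 10 genes, among 19775 genes on the array, was used. That gave 36 of 54675 probe sets, of which 33 name 1 gene and the 3 of MXD4 also name the microRNA gene MIR4800. The lower value of MYC under dexrazoxane was known when the network was picked, so the MYC values in that comparison are given as a description with no p-value, and nothing is supported by them. Dexrazoxane (100 µM) was set against its own vehicle with 3 arrays in each group, and doxycycline (1 µg/ml) against its own vehicle with 1 array in each, all after 24 h. All 8 arrays carried RNA of HTETOP cells, a human line made from HT1080 fibrosarcoma cells in which the TOP2A alleles are disrupted and topoisomerase II alpha comes from a transgene that tetracyclines switch off, so every group, vehicles included, shares that background. Each array held RNA pooled from 3 passages, numbered 15 to 17 for the doxycycline pair. The labels do not say whether numbered arrays came from separate cultures, so errors and p-values measure no more than the scatter among the arrays, part of which may be technical.

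MYC is a basic helix-loop-helix leucine zipper transcription factor that binds the E-box CACGTG only as a dimer with MAX, and its messenger RNA and protein are both short-lived. MXD proteins, MXI1 and MNT compete for MAX and recruit SIN3 and histone deacetylases to the same sites, MGA joins MAX in a noncanonical Polycomb repressor complex, and MLX serves as a parallel partner for the glucose-sensing factors MondoA and ChREBP. In proliferating and tumour cells MYC is known for raising transcription of genes for ribosome assembly, nucleotide synthesis and growth, and HT1080 cells carry an activated NRAS allele, a pathway that stabilises the MYC protein.

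The values are log2 expression made with RMA. This procedure removes background, brings arrays that are processed together to 1 distribution and combines the probes of each set into 1 value. The 8 arrays did not share 1 distribution across the comparisons. Array medians were 5.49 to 5.57 in the dexrazoxane comparison and 4.81 to 4.82 in the doxycycline pair, so differences were taken only within a comparison. The filter and the choice of the brightest probe set used the mean over all 8 arrays. TOP2A, the gene that doxycycline silences, had log2 values of 6.02 on the doxycycline array and 11.98 on its vehicle array. It was lower with dexrazoxane too, at 11.20, 10.92 and 10.52, against 12.41, 12.55 and 12.40 with vehicle, a difference of -1.57 with the groups apart, and whether this bears on the network was not tested. Its paralog TOP2B had 9.69 on the doxycycline array and 9.75 on the vehicle array. On all 8 arrays 12 of 15 mesenchymal marker genes, vimentin and fibronectin among them, lay above the array median, and their mean log2 value was 8.81 to 8.87 with dexrazoxane and 8.82 to 8.86 with vehicle. The epithelial list had a mean of 4.86 to 4.98 with dexrazoxane and 4.81 to 4.86 with vehicle. That of the leukocyte list was 5.05 to 5.46 with dexrazoxane and 5.13 to 5.40 with vehicle. Both means lay below the array medians. On all arrays of these groups 2 of 9 epithelial markers (KRT5 and CLDN4) and 1 of 6 leukocyte markers (CD3E) lay above the median. The mean of the endothelial list stood above the array medians, at 5.93 to 6.07 with dexrazoxane and 5.94 to 5.99 with vehicle. Of its 6 markers 3 were above the median on all arrays of a group. Precision is limited by how few arrays there are.

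MYC was lower on each of the 3 dexrazoxane arrays than on any of the 3 vehicle arrays. Its single probe set had log2 values of 8.28, 8.16 and 8.34 with dexrazoxane, against 8.92, 8.46 and 8.91 with vehicle. The vehicle arrays were the more scattered group, with replicate 2 standing below the other two, and the groups did not overlap. The means were 8.26 ± 0.09 with dexrazoxane and 8.77 ± 0.26 with vehicle (SD, n = 3 each), a difference of -0.51 or 1.42-fold. Within same-numbered pairs the differences were -0.64, -0.30 and -0.57. The standard error of the difference was 0.15 without a block and 0.09 with the replicate number as a block. For scale, 126 of 14731 tested genes (0.855%) had a more negative difference. MYC was picked with its lower value known, so this rank is a description and supports nothing. In RNA from whole cultures, fewer cells with a transcript and less of it per cell cannot be told apart.

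**Figure D1:**
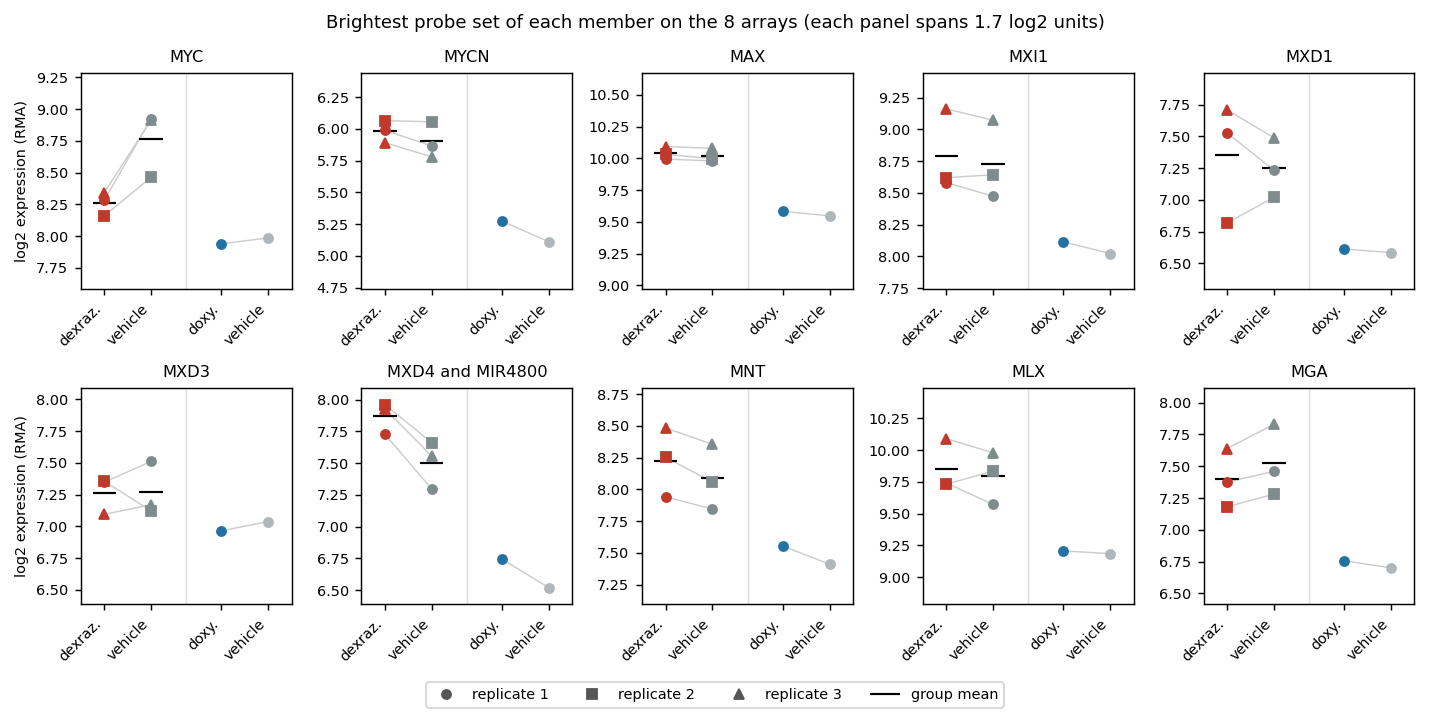
Each panel plots the log2 value of a member's brightest probe set on the y axis against treatment group on the x axis, with points for arrays, marker shapes for replicate numbers, bars for the means of 3 arrays and grey lines joining same-numbered arrays. The 3 dexrazoxane arrays of MYC lie below all 3 vehicle arrays, those of the probe set of MXD4 and MIR4800 lie above, and those of the other 8 members overlap with vehicle; the doxycycline pair is on its own scale.

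MYCN, which is best known from neuroblastoma, was dim. Its brightest probe set read 5.99, 6.06 and 5.89 with dexrazoxane and 5.87, 6.06 and 5.78 with vehicle, a difference of 0.08 ± 0.07 (SE, fit with the block). The groups overlapped. Of the 10 MYCN probe sets 4 reached the filter used for testing, a mean log2 value of 4.83 over all arrays, and the differences of all 10 ran from -0.06 to 0.16. The next brightest had treated arrays all above vehicle, at 5.53, 5.68 and 5.58 with dexrazoxane and 5.34, 5.44 and 5.53 with vehicle. Both values given as 5.53 differ in the next decimal, so the separation is narrow.

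MAX, without which MYC does not bind DNA, stayed within a narrow range. Its brightest probe set read 9.99, 10.03 and 10.09 with dexrazoxane and 9.98, 9.996 and 10.08 with vehicle. The difference was 0.02 ± 0.07 (SE, fit with the block), with a 95% interval of -0.14 to 0.19. The other 4 MAX probe sets had differences of -0.06 to 0.15, with overlapping groups in each. Among the brightest probe sets of the members that of MAX had the smallest spread, with an SD of 0.05 in each group, while dimmer MAX sets reached 0.32 with dexrazoxane.

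Of the antagonists with their own probe sets, MXI1, which was first found as a MAX interactor, read 8.58, 8.62 and 9.16 with dexrazoxane and 8.47, 8.64 and 9.07 with vehicle (difference 0.06 ± 0.07, SE). MXD1, a factor of differentiating cells, read 7.53, 6.82 and 7.71 against 7.23, 7.02 and 7.49 with vehicle (0.10 ± 0.10, SE). In both genes replicate 3 was the highest array of each group, and the treated and vehicle values overlapped. The pairs of MXD1 pointed both ways, at 0.29, -0.20 and 0.22. MXD3, an antagonist known in mouse cells from S phase, had a difference of -0.002 with pairs at -0.16, 0.23 and -0.07. MNT, the antagonist that most cell types express, read 7.94, 8.25 and 8.48 with dexrazoxane and 7.85, 8.06 and 8.35 with vehicle. It was higher in each of the 3 pairs, by 0.09, 0.20 and 0.13, but the shift was smaller than the distance between replicates and the groups overlapped. Its dimmer probe set differed by 0.24, again with all 3 pairs above 0 and with overlapping groups. The 95% interval ran from -0.03 to 0.31 for the brighter one. For the dimmer one it ran from 0.03 to 0.46, not adjusted for the number of probe sets tested, and limma over all probe sets with the block gave an adjusted p of 0.322.

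The 3 probe sets annotated to both MXD4 and MIR4800, a microRNA gene whose locus lies within that of MXD4 on chromosome 4, came next. Their brightest had the largest difference after MYC, and the other two lay within the range of other members' probe sets. They cannot be assigned to MXD4 alone and are left out of the counts of genes. The brightest read 7.73, 7.96 and 7.93 with dexrazoxane, against 7.30, 7.66 and 7.56 with vehicle. All treated arrays were above all vehicle arrays, and the pairs differed by 0.43, 0.30 and 0.37. In a limma fit of all 54675 probe sets with the block the difference was 0.37 ± 0.08 (SE, adjusted p = 0.120). Without the block its SE was 0.13, and it passed the bound of 0.05 in neither fit. These probe sets were not in the fit of 14731 genes that gave the calls of other genes. Adjustment over more probe sets is stricter, so this adjusted p is not comparable with those of the gene fit. The next was also apart, at 6.57, 6.94 and 6.59 with dexrazoxane and 6.42, 6.55 and 6.46 with vehicle. The dimmest overlapped, with a difference of 0.15.

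MLX read 9.74, 9.73 and 10.09 with dexrazoxane and 9.57, 9.83 and 9.98 with vehicle in its brightest probe set, a difference of 0.06 ± 0.08 (SE). MLX is the obligate partner of MondoA and ChREBP. Its 6 probe sets did not point the same way: 3 were above 0 and 3 below, from -0.15 to 0.17. MGA, the very large scaffold that carries a T-box as well as a helix-loop-helix domain, read 7.37, 7.18 and 7.64 with dexrazoxane and 7.46, 7.28 and 7.83 with vehicle. It was lower in each of 3 pairs, by -0.09, -0.10 and -0.19, and the groups overlapped (difference -0.12 ± 0.07, SE, 95% interval -0.29 to 0.04). A probe set of MGA nearly as bright had pairs at -0.04, -0.51 and 0.16.

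**Figure D2:**
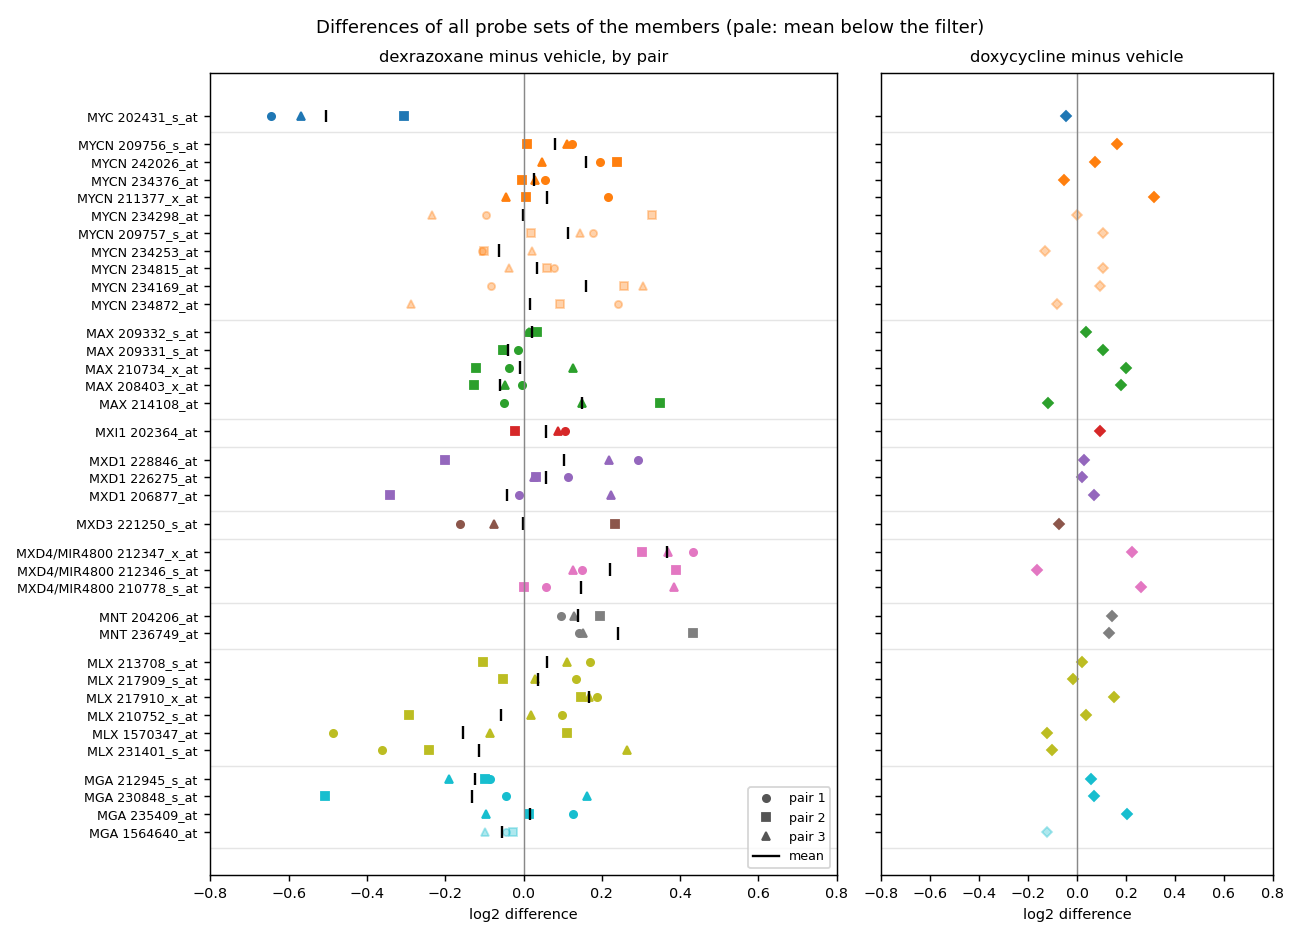
Log2 differences (x axis) of all 36 probe sets (y axis, grouped by member) are shown for dexrazoxane minus vehicle, with a point for each same-numbered pair and a bar for the mean, and for the single doxycycline pair. The MYC probe set lies furthest from 0 with dexrazoxane, at -0.51, and at -0.05 with doxycycline; differences of the other probe sets under dexrazoxane ran from -0.15 to 0.37.

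Apart from MYC, limma called 0 of 8 tested members with the replicate block, where it called 4.87% of all tested genes, 2.44% lower and 2.42% higher. Without the block it also called 0 of 8, where it called 0% of all genes. In that fit 0 of 8 were at an unadjusted p under 0.05, against 765 of 14731 genes. MYC is left out of these counts because its values were known when the network was picked. Treated and vehicle arrays were apart for 0 of the 8, against 10.1% of tested genes (3.62% all lower and 6.53% all higher). Of the 32 probe sets outside MYC and MXD4 1 was apart, against 8.94% of all probe sets with 1 symbol. Of the 3 probe sets of MXD4 and MIR4800 2 were apart, both higher with dexrazoxane. At the shares found over all genes, a list of 8 can hold none. The 8 members had differences of -0.12 to 0.14 with standard errors of 0.07 to 0.10 in the fit with the block, and their limma adjusted p-values ran from 0.304 to 0.996. For scale, the median difference over all tested genes was 0.02.

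In the doxycycline pair MYC read 7.94 on the doxycycline array and 7.99 on its vehicle array, a difference of -0.05 with no replicate behind it. The differences of the 9 members ran from -0.07 to 0.16, with 7 above 0 and 2 below, and 0 of 9 were past 1.2-fold, against 5.93% of tested genes (3.43% lower and 2.5% higher). The SD of this difference over all tested genes was 0.146. Both arrays of the pair held exactly the same value for 5261 of all probe sets (9.62%), and the reason was not tested. With 1 array in each group, a difference at or near 0 in this pair is weak evidence of no change. MNT was at 7.55 with doxycycline and 7.41 with vehicle, and its dimmer probe set at 4.98 and 4.85. The 3 probe sets of MXD4 and MIR4800 differed by 0.23, -0.16 and 0.26, so they pointed both ways. One dim MYCN probe set was the single probe set of the 36 past 1.2-fold, at 4.39 with doxycycline and 4.07 with vehicle, where 10.9% of all probe sets with 1 symbol were.

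Among network genes outside the 10, MYCL, the third MYC paralog, was dim and read 5.68, 5.73 and 5.70 with dexrazoxane and 5.81, 5.78 and 5.91 with vehicle. The arrays were apart, by -0.13 ± 0.08 (SE), and limma with the block gave an adjusted p of 0.350. MLXIP, which encodes MondoA, differed by 0.23 ± 0.09 (SE, limma adjusted p = 0.186 with the block) and by 0.21 in the doxycycline pair. MLXIPL, which encodes ChREBP, differed by 0.04 with dexrazoxane and -0.13 with doxycycline. Of 4 tested targets of MondoA and MLX 0 were called with the block (4.87% of all genes) and 0 without it. In the fit without the block 0 had an unadjusted p under 0.05, against 765 of all 14731 tested genes. KLF10, ARRDC3 and PFKFB3 differed by 0.07, 0.10 and 0.002. The list included TXNIP, the thioredoxin-binding arrestin gene, whose pairs were 0.20, -0.30 and -0.40.

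The partner proteins of the network were next set beside it. Of 16 tested MYC cofactors SKP2, the F-box protein that ubiquitinates MYC and p27, fell with the block, and 0 rose, where 4.87% of all tested genes were called. It read 9.40, 8.99 and 9.02 with dexrazoxane, against 9.97, 9.46 and 9.62 with vehicle. The groups were apart, and limma with the block gave -0.55 ± 0.07 (SE, adjusted p = 0.012), a call lost without pair 1 (0.0626) and without the block (adjusted p = 0.941). The scaffold gene TRRAP, which brings histone acetyltransferases to MYC, differed by 0.07 with dexrazoxane and by 0.29 with doxycycline, the 1 pathway gene past 1.2-fold there. ACTL6A, a subunit shared by chromatin remodellers, read lower on all treated arrays (-0.26 ± 0.07, SE, limma adjusted p = 0.086 with the block) and differed by -0.20 with doxycycline. KAT2A, an acetyltransferase gene, and SMARCB1, a SWI/SNF subunit gene, differed by -0.17 and 0.21 with dexrazoxane and were not called.

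Of 10 tested SIN3 and histone deacetylase corepressor genes, and of 9 tested genes of the MGA complex, 0 were called with the block; at the 4.87% called over all genes, lists of this size can hold none. HDAC1, a deacetylase, differed by 0.24 ± 0.09 (SE), RING1, a Polycomb ubiquitin ligase, by 0.26 ± 0.08 and CBX3, a heterochromatin protein gene, by -0.24 ± 0.07, with limma adjusted p-values of 0.158, 0.115 and 0.102 in the fit with the block. The SIN3 complex genes SAP18, SAP30 and RBBP7 differed by 0.20, -0.19 and -0.17, so the list had no common direction, with 4 above 0 and 6 below. In the doxycycline pair SIN3B, the scaffold that MXD proteins bind, differed by 0.21, SUDS3, another subunit gene, by -0.23, and of the MGA complex E2F6, a DNA-binding subunit, by 0.18 and YAF2, a RING-binding subunit, by 0.19. TFDP1, the E2F dimer partner, and KDM5C, a histone demethylase, differed by -0.14 and 0.12 with dexrazoxane, both within overlapping groups.

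Of 14 tested genes for turnover of the MYC protein 2 fell and 1 rose in limma with the block. Over all tested genes 2.44% fell and 2.42% rose. Without the block 0 were called, and 2 of the 14 had an unadjusted p under 0.05, against 765 of all 14731 tested genes. AURKA, the mitotic kinase that also shields MYCN from degradation, read 10.32, 10.07 and 10.21 with dexrazoxane and 10.77, 10.35 and 10.64 with vehicle (-0.38 ± 0.08, SE, adjusted p = 0.034). CIP2A, an inhibitor of the phosphatase that marks MYC for degradation, had overlapping groups but was lower in each pair, by -0.28, -0.42 and -0.55 (-0.41 ± 0.08, adjusted p = 0.033). TRIM32, a ubiquitin ligase that targets MYC in mouse neural progenitors, read 9.49, 9.39 and 9.52 with dexrazoxane and 9.20, 8.95 and 9.20 with vehicle (0.35 ± 0.08, adjusted p = 0.040). FBXO32, another ubiquitin ligase, differed by 0.37 ± 0.09 (adjusted p = 0.058). The calls of AURKA and CIP2A were lost without pair 1 and without pair 3, and that of TRIM32 without any of the pairs. All 3 calls were also lost when every probe set was tested, those of AURKA and TRIM32 with no filter, and that of AURKA with averaged probe sets. The list median was 0.01 with dexrazoxane and -0.002 with doxycycline.

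Of 11 tested regulators of MYC transcription and neighbours of its locus 0 were called with the block, which a list this short can give at the 4.87% called over all genes. TCF7L2, the WNT-responsive factor, read lower on all treated arrays (-0.30 ± 0.08, SE, limma adjusted p = 0.079). MED1, a Mediator subunit gene, differed by 0.18 and CTCF, the insulator protein gene, by -0.17. PVT1, the noncoding RNA gene next to MYC, was dim and differed by 0.09 ± 0.08 (SE) with dexrazoxane and by 0.20 with doxycycline.

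The genes that MYC is known to activate mostly read slightly lower with dexrazoxane and 2 passed the test with the block, where 2.44% of all tested genes fell; without it 0 did. Of 20 tested genes for ribosome assembly 15 were below 0, with a median of -0.09, where 6685 of all 14731 tested genes were below 0 with a median of 0.02, and UTP20, which acts in small subunit processing, was the 1 called with the block (-0.35 ± 0.08, SE, limma adjusted p = 0.045). NOLC1, a nucleolar chaperone gene (-0.27), NIP7 (-0.21) and the RNA acetyltransferase gene NAT10 (-0.23) were not called. Of 26 tested genes for metabolism, translation and growth 19 were below 0, with a median of -0.08, and PAICS, an enzyme of purine synthesis, was the 1 called. PAICS read 11.35, 11.15 and 11.06 with dexrazoxane and 11.63, 11.54 and 11.41 with vehicle, with the groups apart (-0.34 ± 0.07, SE, adjusted p = 0.042). The purine enzyme genes PPAT and GART differed by -0.26 ± 0.08 and -0.20 ± 0.07 and the CTP synthase gene CTPS1 by -0.28 ± 0.09, with adjusted p-values of 0.090 to 0.146. The largest doxycycline differences of these lists were -0.15 for NIP7, -0.14 for the ribosomal gene transcription factor UBTF, -0.21 for SHMT1, a folate enzyme gene, and 0.21 for SLC3A2, an amino acid transporter gene. In that pair the 2 list medians were 0.03 and 0.04, against 0.02 over all tested genes. The calls of UTP20 and PAICS were lost without pair 1 and without pair 3, and that of PAICS also without pair 2. Both were also lost with no filter and when every probe set was tested.

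The E-box CACGTG, which is its own reverse complement, was searched in RefSeq windows (GRCh38.p14) of 250 bases before to 50 bases after each gene start, and 7.26% of the 35116 windows held it. By gene, 12.0% of 11747 tested genes with a window held it, 10.9% of 302 genes that limma with the block called lower and 11.9% of 286 called higher. Among listed genes with a window, tested or not, it was found for 8 of 20 ribosome assembly genes and 13 of 23 metabolism, translation and growth genes. Over all 27305 genes with a window the share was 8.77%. The stretches printed here belong to those genes of the 2 lists named above that hold the motif, and show it in capitals. PAICS and PPAT lie head to head on chromosome 4 and share 1 E-box, at chr4:56435792-56435797, and begins 40 bases after 1 of the starts of PAICS and 182 bases before that of PPAT. The UTP20 site begins 10 bases before the start on chromosome 12 and the NAT10 site 15 bases before it on chromosome 11, both on the plus strand.
PAICS, chr4:56435772-56435801, plus strand: ctggaaagctgtatttgctgCACGTGgaaa
PPAT, chr4:56435772-56435817, minus strand: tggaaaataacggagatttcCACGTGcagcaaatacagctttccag
UTP20, chr12:101280075-101280120, plus strand: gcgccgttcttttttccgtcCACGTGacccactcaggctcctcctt
NAT10, chr11:34105594-34105639, plus strand: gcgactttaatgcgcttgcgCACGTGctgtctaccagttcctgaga

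The median dexrazoxane difference was -0.07 for the 20 tested MYC-activated genes with an E-box in the window and -0.09 for the 18 with a window and none, and the medians of these groups lay close together. No test of their difference was made. Over all tested genes the medians were 0.03 with an E-box and 0.02 without. These matches describe letters in a window and not binding.

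MYC itself had no window among those searched, so whether its promoter holds the E-box is not described. Of the 9 members with a window (14 windows in all), 3 held the E-box, against 12.0% of tested genes with a window. These 3 were MXD4, MNT and MLX. They are printed as the only members whose windows hold the motif. The MNT site begins 193 bases before the start, that of MXD4 238 and that of MLX 50.
MXD4, chr4:2262322-2262359, minus strand: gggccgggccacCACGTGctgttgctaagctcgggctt
MNT, chr17:2401228-2401273, minus strand: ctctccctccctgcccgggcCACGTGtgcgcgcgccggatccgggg
MLX, chr17:42567030-42567075, plus strand: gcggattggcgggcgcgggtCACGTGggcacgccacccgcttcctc

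Of 13 tested genes that MYC is known to repress, 2 rose and 1 fell in limma with the block, where 2.42% of all tested genes rose and 2.44% fell. Without the block 0 were called, with 2 at an unadjusted p under 0.05, against 765 of all 14731 tested genes. The list median was 0.04. CDKN1A, the p21 inhibitor of cyclin-dependent kinases, read 10.60, 11.05 and 10.77 with dexrazoxane and 9.98, 10.53 and 10.46 with vehicle (0.48 ± 0.09, SE, adjusted p = 0.024). GADD45A, a growth arrest gene, read 11.75, 11.80 and 12.01 with dexrazoxane and 11.42, 11.44 and 11.75 with vehicle (0.32 ± 0.07, adjusted p = 0.0498). Both are also direct p53 targets. CEBPD, a C/EBP factor gene, differed by -0.30 ± 0.08 (SE, adjusted p = 0.068). THBS1, the matrix protein gene thrombospondin-1, fell, with pairs at -0.62, -0.61 and -0.62 (adjusted p = 0.009), and was the 1 gene of those called in these lists that kept its call in all 10 alternatives with the block. CDKN1A lost its call without pair 1 and with every probe set tested. GADD45A lost it without any of the pairs, with every probe set, with no filter and with median centring. In the doxycycline pair CDKN1A differed by 0.11, GADD45A by 0.07, the growth arrest gene GAS1 by 0.20 and THBS1 by -0.24.

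**Figure D3:**
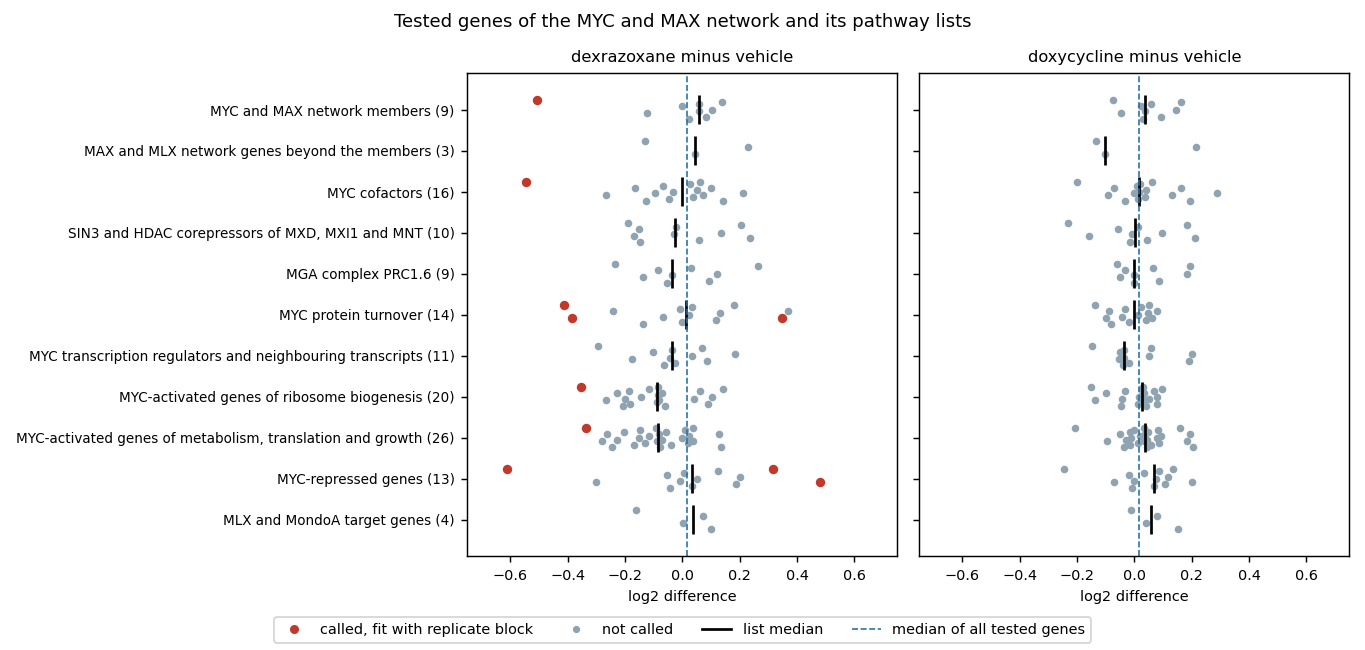
Log2 differences (x axis) of the tested genes of the network and of 10 lists (y axis, number tested in brackets) are shown for dexrazoxane minus vehicle and doxycycline minus vehicle, with a point for each gene, a bar for the list median and a dashed line for the median of all tested genes. The MYC-activated lists have medians of -0.09 and -0.08 with dexrazoxane and of 0.03 and 0.04 with doxycycline, and red points are the genes called by limma with the replicate block, MYC being shown as a description.

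Over these 10 lists 126 of 143 different genes were tested, and limma with the block called 3 higher and 6 lower. That is 9 of 126, where 4.87% of all genes were called. Without the block limma called 0, and 7 of the 126 had an unadjusted p under 0.05, against 765 of all 14731 tested genes.

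Genes whose pattern was most like that of MYC were found by the root mean square distance between log2 values over the 6 arrays of the dexrazoxane comparison, each gene centred on its own mean. RFC4, a clamp loader subunit, was nearest, at a distance of 0.07, followed by the chondroitin sulfotransferase gene CHST11 (0.09), AURKA (0.09), PCLAF, a PCNA-associated factor gene (0.10), the protein kinase C gene PRKCE (0.10) and CDCA3, a mitotic entry gene (0.10). The median distance over all tested genes was 0.35. Their dexrazoxane differences ran from -0.51 for RFC4 to -0.38 for AURKA, and their differences in the doxycycline pair from -0.06 for RFC4 to 0.05 for AURKA. Of the 8 other members with their own probe sets MGA was nearest to MYC, at 0.24, as number 924 in order of distance. Among these 8 MNT was furthest, at 0.41. No distance was computed for the probe sets of MXD4 and MIR4800.

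**Figure D4:**
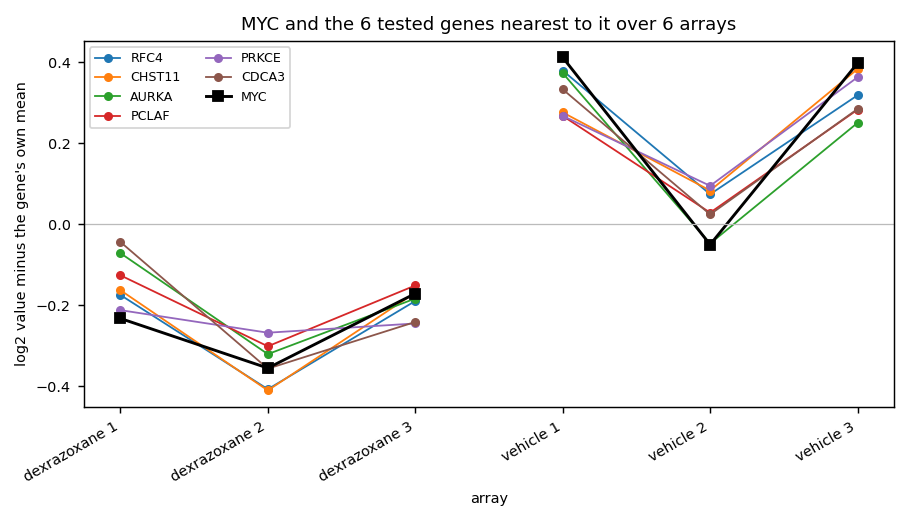
Log2 values of MYC and the 6 nearest genes, each minus its own mean (y axis), are shown for the 3 dexrazoxane and 3 vehicle arrays (x axis), with a line for each gene within a group. The genes were picked for this likeness; all 7 lie lower on the dexrazoxane arrays, and vehicle replicate 2 is the lowest vehicle array for each of them.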

How the data were processed

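RNA of 8 HTETOP samples was hybridised to Affymetrix arrays. The deposited table holds log2 values per probe set, made by the authors with RMA per the submitters' processing notes (no version given), and nothing read here says if the arrays were run jointly. Probe sets with 1 gene symbol (41097 of 54675) were used, with symbols updated through a RefSeq table (GRCh38.p14); the probe set with the highest mean stood for its gene. Genes at or above the 40th percentile of probe set means (a log2 value of 4.83) were tested, 14731 of 19775, with limma 3.58.1 in R 4.3.3 (two-sided, Benjamini-Hochberg over all genes tested, bound 0.05). The main fit had no block. Deviations from group means correlated at 0.823, 0.574 and 0.716 between same-numbered arrays, each positive, which pairs the arrays by the data and not by the labels; a fit with the replicate block therefore stands beside the main one; standard errors and intervals in the report come from it unless stated. For the doxycycline pair no p was computed. The fits were tested on simulated arrays. Members and lists came from general knowledge and were chosen with earlier results of these data known. Named genes are all members, up to 4 per list with the smallest p with the block, up to 2 with the largest doxycycline difference, and the 6 nearest to MYC.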

Additional observations from a re-analysis of the deposited data

How the results depend on the processing

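With the replicate block, members called went from 0 to 1, which was MYC and from which nothing is read, and pathway genes called from 0 to 3 higher and 6 lower. Combining the block with other settings was chosen after seeing the data. The settings were no filter, a 60th percentile filter, averaged probe sets, every probe set, median centring, another quantile normalization and trended, robust variance. None of them called a member other than MYC. The probe sets of MXD4 and MIR4800 were not in these fits or in those below, which used probe sets with 1 symbol. Pathway genes called higher and lower were 1 and 3 with no filter, 4 and 8 with a 60th percentile filter, 3 and 5 with averaged probe sets, 0 and 2 with every probe set, 2 and 6 with centring, 3 and 6 with quantile normalization and 7 and 17 with trended variance. Leaving out a pair also called no member other than MYC, and gave 0 to 2 pathway genes higher and 1 to 6 lower. Fewer arrays were fitted there, and what caused the remaining changes was not tested. No alternative without the block called a member. The MYC difference stayed between -0.66 and -0.43 in 24 alternatives, and between -0.09 and -0.04 with doxycycline. All 255 member differences moved by less than 1 SD between replicates. For MYC the largest move exceeded its SD with dexrazoxane (0.09) but not that with vehicle (0.26). Doxycycline pathway genes past 1.2-fold, 1 higher and 0 lower, became 0 higher with averaged probe sets and, with quantile normalization, 0 higher and 1 lower; with no filter 1 was lower. Levels near background limit what the dim MYCN probe sets can show.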
